A study of Mus musculus with 8 samples.

Results

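The genes described here are 40 type I interferon-stimulated antiviral genes of the mouse, of which 38 were measured among 19938 genes in peritoneal macrophages cultured with or without histidine-rich glycoprotein (HRG). Each was taken from the array row annotated with its symbol alone. Isg15 shared its row with another symbol and Ifi44 had no row in the annotation used, so these 2 genes were not analysed here. HRG is a multidomain plasma protein that binds heparin, metal ions and cell-surface ligands. The cells came from the peritoneal cavities of 10 wild-type C57/Bl6 mice, washed out and combined into 1 pool, and were held overnight in RPMI medium with 5% fetal calf serum. Basal 6h and Basal 24h are untreated macrophages after 6 h and 24 h of further culture. HRG 6h and HRG 24h are macrophages exposed for the same times to recombinant HRG at 1 µg/ml. Each of the 4 groups had 2 Affymetrix arrays, each from 250 ng of total RNA, and no group carried a transgene or deletion. Nothing in the labels says how the 2 samples of a group were kept apart. All came from 1 pool, so the p-values reflect how far the samples of a group lay apart, possibly for technical reasons alone, and no value speaks of variation between mice.

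Type I interferons (the interferon-alpha family and interferon-beta) bind a receptor made of Ifnar1 and Ifnar2, which activates the kinases Jak1 and Tyk2. Signalling through Stat2 and Irf9 then leads to a complex, ISGF3, which binds the interferon-stimulated response element in the promoters of target genes. The products block viral entry, translation, replication and release, sense viral RNA, or restrain the signal itself, and macrophages are known to keep many of them expressed through low tonic interferon signalling.

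Values are log2 levels after robust multiarray averaging (RMA), and a difference is a difference of group means with its standard error (SE) from a linear model fitted with limma across all genes. A gene is said to have risen or fallen where its Benjamini-Hochberg adjusted p over the 19938 genes was under 0.05. Array rows differ in probe efficiency, so no level of one gene was set against that of another. Several of the genes have close relatives (Ifit3 and Ifit3b, Oas1a and its tandem copies, Trim30a and Trim30d, Mx1 and Mx2), and their probes may not separate them fully.

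The 8 arrays had medians between 7.18 and 7.29 over all rows. For the labelled cell type, levels were summed on the linear scale over the 9 measured of 10 peritoneal macrophage markers. The log2 of this sum, in which the brightest rows weigh most, was between 15.78 and 16.09 on all arrays. Sums of other marker lists given below were made in the same way. The macrophage surface receptor gene Adgre1 lay between 13.38 and 13.63. Markers of other cells, B and mast cells among them, also gave signal, so these levels do not show how pure the macrophages were. Replicates correlated at 0.996 to 0.998 over all genes. The antiviral genes nevertheless differed between replicates in a shared direction. In Basal 24h, replicate 1 was the higher for 34 of the 38, with a median gap of 0.36, while it was the higher for 51.7% of all genes. In Basal 6h replicate 1 was also the higher for 34, by a median of 0.10, and in HRG 6h it was the lower for 34, by a median of 0.14. The 2 Basal 24h arrays therefore stood apart from each other in these genes. For the 38 genes, results that rest on 1 of them are given below with and without it. Calls of genes outside the 38 were not examined with an array left out, so they may rest on 1 array as well.

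Before treatment effects are considered, the level of the 38 genes can be followed array by array. Their median was 10.99 and 10.87 on the Basal 6h arrays, 11.02 and 11.21 on the HRG 6h arrays, 10.15 and 9.85 on the Basal 24h arrays, and 10.47 and 10.34 on the HRG 24h arrays. The median of the antiviral genes was thus lowest in Basal 24h and next lowest in HRG 24h. The median of all genes varied little, between 7.42 and 7.50.

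**Figure D1:**
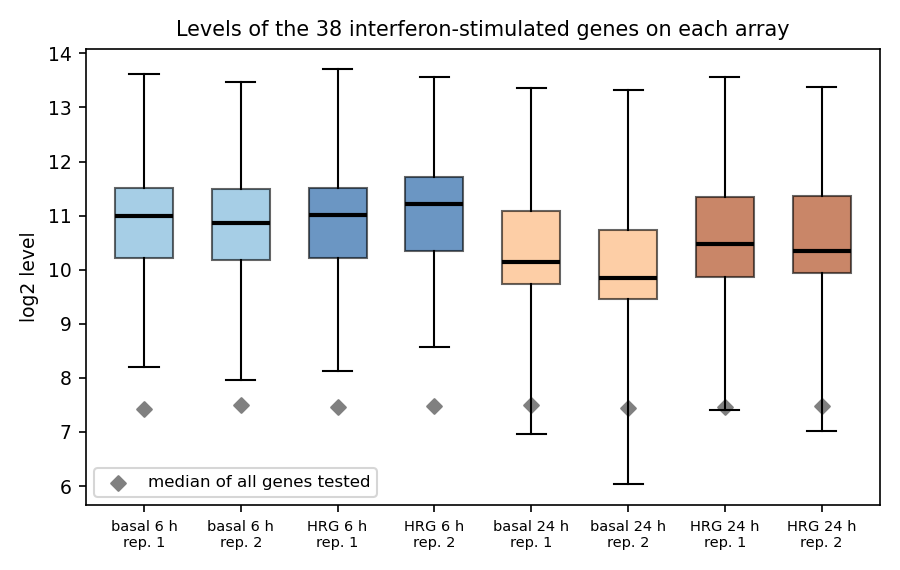
Log2 RMA level (vertical axis) of the 38 interferon-stimulated antiviral genes on each of the 8 arrays (horizontal axis), as boxes from the lower to the upper quartile with a line at the median and whiskers to the lowest and highest gene; diamonds mark the median of all genes tested. The median of the genes lies at 10.99 and 10.87 on the Basal 6h arrays and at 10.15 and 9.85 on the Basal 24h arrays, with the HRG 24h arrays between them at 10.47 and 10.34.

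The promoters are shown because the response element in them is the feature that defines this gene group in textbooks and because genes that changed together here differ in it. RefSeq windows (mouse build GRCm38.p6) from 250 bases before to 50 bases after the transcription start were at hand for 27 of the 38 measured genes, some with more than 1 start. They were searched for the core of the response element, GAAANNGAAA, or TTTCNNTTTC on the other strand. The core was found in at least 1 window of 11 of the 27 genes (40.7%), against 1079 of 27025 genes with such a window (3.99%). Allowing a gap of 1 or 2 bases between the repeats of the core gave 15 of 27 genes (55.6%), against 7.27% of all genes. The shorter interferon-gamma activated sequence, TTCNNNGAA, a palindrome that reads alike on both strands, was found in 8 of 27 genes (29.6%), against 9.55% of all genes. The motifs can overlap, and in Bst2 they did. The windows of 5 genes follow, written 5′ to 3′ on the strand of the gene, with response element cores in capitals. Rsad2 lies at chr12:26456403-26456702 on the minus strand, and its neighbour Cmpk2 at chr12:26468965-26469264 on the plus strand. Ifit3 lies at chr19:34583279-34583578 and Ifit1 at chr19:34640639-34640938, both on the plus strand. Eif2ak2 lies at chr17:78882523-78882822 on the minus strand.
Rsad2: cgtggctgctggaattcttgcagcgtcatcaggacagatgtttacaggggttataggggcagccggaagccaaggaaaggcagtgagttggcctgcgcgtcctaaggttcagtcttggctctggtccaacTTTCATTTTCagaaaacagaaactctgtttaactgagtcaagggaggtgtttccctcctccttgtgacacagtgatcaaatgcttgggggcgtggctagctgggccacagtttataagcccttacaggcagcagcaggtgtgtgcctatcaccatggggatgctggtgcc
Cmpk2: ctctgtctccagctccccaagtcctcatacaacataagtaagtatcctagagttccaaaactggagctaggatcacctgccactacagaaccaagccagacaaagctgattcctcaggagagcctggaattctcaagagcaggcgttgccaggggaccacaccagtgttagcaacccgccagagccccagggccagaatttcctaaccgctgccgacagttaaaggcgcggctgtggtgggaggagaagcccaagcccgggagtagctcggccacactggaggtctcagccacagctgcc
Ifit3: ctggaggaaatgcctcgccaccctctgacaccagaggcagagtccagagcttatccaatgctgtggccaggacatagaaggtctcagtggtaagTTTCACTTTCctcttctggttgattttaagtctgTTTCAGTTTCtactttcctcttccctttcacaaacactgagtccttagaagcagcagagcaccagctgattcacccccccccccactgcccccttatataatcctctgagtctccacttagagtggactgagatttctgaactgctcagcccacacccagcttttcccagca
Ifit1: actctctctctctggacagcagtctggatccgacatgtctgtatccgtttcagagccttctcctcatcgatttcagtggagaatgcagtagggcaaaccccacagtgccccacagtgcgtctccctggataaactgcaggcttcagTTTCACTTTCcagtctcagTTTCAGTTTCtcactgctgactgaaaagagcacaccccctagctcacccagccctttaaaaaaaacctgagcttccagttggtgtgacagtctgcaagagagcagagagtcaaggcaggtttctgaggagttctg
Eif2ak2: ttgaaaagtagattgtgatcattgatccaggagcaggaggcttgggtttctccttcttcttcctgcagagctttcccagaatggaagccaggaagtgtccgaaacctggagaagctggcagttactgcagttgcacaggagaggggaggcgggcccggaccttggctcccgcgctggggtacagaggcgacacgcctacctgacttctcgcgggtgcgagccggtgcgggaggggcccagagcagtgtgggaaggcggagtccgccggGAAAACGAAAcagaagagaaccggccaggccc
The Rsad2 core starts 120 bases before the transcription start. Ifit3 has 2 cores, starting 156 and 122 bases before its start, and Ifit1 has 2, starting 104 and 85 bases before its start. The 2 cores of Ifit3 and those of Ifit1 have the same letters, TTTCACTTTC followed by TTTCAGTTTC. Eif2ak2 has its core 18 bases after the start. The Cmpk2 window has none, which says only that these letters are not in this window. A match is a description of the sequence and says nothing of binding.

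In culture without HRG, the antiviral genes declined from 6 h to 24 h. Of the 38, 26 fell and 1 rose, where 5.48% of all genes fell and 3.8% rose. Their median difference was -0.55, against 0.03 over all genes. Both Basal 24h arrays lay below both Basal 6h arrays for 32 of the 38, which was so for 21.7% of all genes. At 24 h 10 genes were at least 2-fold lower, a fold reached by 0.772% of all genes. These were Rsad2, Ifit3, Cmpk2, Mx1, Ifit2, Ifit1, Mx2, Isg20, Zbp1 and Xaf1. In bulk RNA, fewer cells of a type and less RNA per cell cannot be told apart.

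The furthest fall was that of Rsad2, which encodes viperin, an enzyme that turns CTP into a chain terminator of viral RNA synthesis. Its levels were 11.71 and 11.50 in Basal 6h and 9.44 and 9.07 in Basal 24h, so the groups did not overlap. The difference was -2.35 ± 0.13 (SE, n = 2 per group), a 5.10-fold fall (limma adjusted p = 1.7e-06). Cmpk2, the mitochondrial nucleotide kinase whose gene is the next protein-coding gene to Rsad2 on chromosome 12, fell with it, from 9.88 and 9.61 to 8.10 and 7.61. Its difference was -1.89 ± 0.15 (adjusted p = 2.2e-05). The exonuclease gene Isg20 fell from 10.63 and 10.41 to 9.28 and 9.52, by 1.12 ± 0.12 (adjusted p = 0.00011). The other 3 genes of this group of enzymes acting on nucleotides and RNA did not pass the test. These were the deoxynucleotide hydrolase Samhd1 (0.14 ± 0.11), the RNA-editing enzyme Adar (-0.17 ± 0.09) and the RNA-activated kinase Eif2ak2, known as PKR (-0.28 ± 0.14).

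The IFIT proteins bind viral RNA ends and block translation, and all 3 measured members fell. Ifit3 was at 11.44 and 11.33 in Basal 6h and at 9.77 and 8.81 in Basal 24h, a difference of -2.09 ± 0.24 (adjusted p = 0.00023). Ifit2 went from 9.06 and 8.82 to 7.41 and 6.94, and Ifit1 from 11.82 and 11.53 to 10.32 and 9.83. The groups did not overlap in any of the 3, although the Basal 24h replicates of Ifit3 were nearly 1 log2 unit apart. Differences were -1.76 ± 0.15 for Ifit2 (adjusted p = 2.3e-05) and -1.60 ± 0.16 for Ifit1 (adjusted p = 8.1e-05).

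Mx1 and Mx2 encode dynamin-like GTPases that trap viral nucleocapsids. C57BL/6 mice are known to carry a defective Mx1 allele, and the transcripts of both genes are read here only as transcripts. Mx1 stood at 8.81 and 8.48 in Basal 6h and at 7.12 and 6.46 in Basal 24h. Mx2 stood at 8.20 and 7.96 and then at 6.95 and 6.03. Both fell without overlap, with differences of -1.85 ± 0.20 for Mx1 (adjusted p = 0.00015) and -1.58 ± 0.25 for Mx2 (adjusted p = 0.0016). Bst2, which encodes tetherin, a membrane protein that holds budding virions on the cell, fell by 0.75 ± 0.11 (adjusted p = 0.0013).

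The oligoadenylate synthetase family, whose active enzymes make the 2′-5′ oligoadenylates that switch on RNase L, moved less. Of its 5 genes, 3 fell. Oasl1, which is known to hold back translation of Irf7, fell by 0.84 ± 0.13, Oasl2 by 0.55 ± 0.12 and Oas1a by 0.54 ± 0.13. Oas2 and Oas3, neighbours on chromosome 5, had differences of -0.36 ± 0.13 and -0.36 ± 0.14 that did not pass (adjusted p = 0.13 and 0.15).

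All 5 nucleic acid sensors fell in the fit to the 8 arrays, but without Basal 6h replicate 1 or without Basal 24h replicate 2 only Zbp1 passed. Zbp1 and Ddx60 alone passed after a further quantile normalization and when only the 4 basal arrays were fitted. The Z-nucleic acid sensor Zbp1 fell by 1.02 ± 0.15 (adjusted p = 0.0012) and the helicase gene Ddx60 by 0.87 ± 0.20 (adjusted p = 0.018). The RIG-I-like receptors were nearer the threshold: Ddx58, which encodes RIG-I, fell by 0.43 ± 0.12 (adjusted p = 0.039), Ifih1, which encodes MDA5, by 0.40 ± 0.11 (adjusted p = 0.048), and Dhx58, which encodes LGP2, by 0.46 ± 0.13 (adjusted p = 0.043).

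Of the 4 genes of the ISG15 and ubiquitin system, Usp18, the protease that removes ISG15 and also blocks the interferon receptor, fell by 0.91 ± 0.13, and Herc6, the mouse ISG15 ligase, fell by 0.91 ± 0.17. The ubiquitin ligase genes Trim25 (-0.04 ± 0.09) and Trim30a (-0.21 ± 0.12) did not pass. Parp14, Dtx3l and Parp9 lie one after another on chromosome 16, and the products of Parp9 and Dtx3l form a complex. Dtx3l fell by 0.62 ± 0.10 and Parp9 by 0.48 ± 0.12, as did Parp12 elsewhere in the genome, by 0.45 ± 0.11, while Parp14 (-0.42 ± 0.12, adjusted p = 0.056) did not pass. Of the remaining 8 genes, Xaf1 fell by 1.01 ± 0.12, Tor3a by 0.77 ± 0.09, Ifi35 by 0.56 ± 0.09 and Rtp4 by 0.55 ± 0.15. Sp100 (-0.35 ± 0.12), Lgals3bp (-0.21 ± 0.11) and Epsti1 (0.31 ± 0.11) did not pass.

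Ifi27, a mitochondrial membrane protein gene, was the exception and rose. It stood at 11.37 and 11.35 in Basal 6h and at 11.82 and 11.76 in Basal 24h, a difference of 0.43 ± 0.09 (adjusted p = 0.010). With HRG it went from 11.37 and 11.29 to 11.72 and 11.73, a rise of 0.40 ± 0.09 (adjusted p = 0.020) that did not pass when any 1 of the 4 HRG arrays was left out. Without HRG it did not pass without Basal 24h replicate 1 (adjusted p = 0.073). HRG and basal arrays overlapped at 6 h and both HRG 24h arrays were slightly below the Basal 24h arrays.

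**Figure D2:**
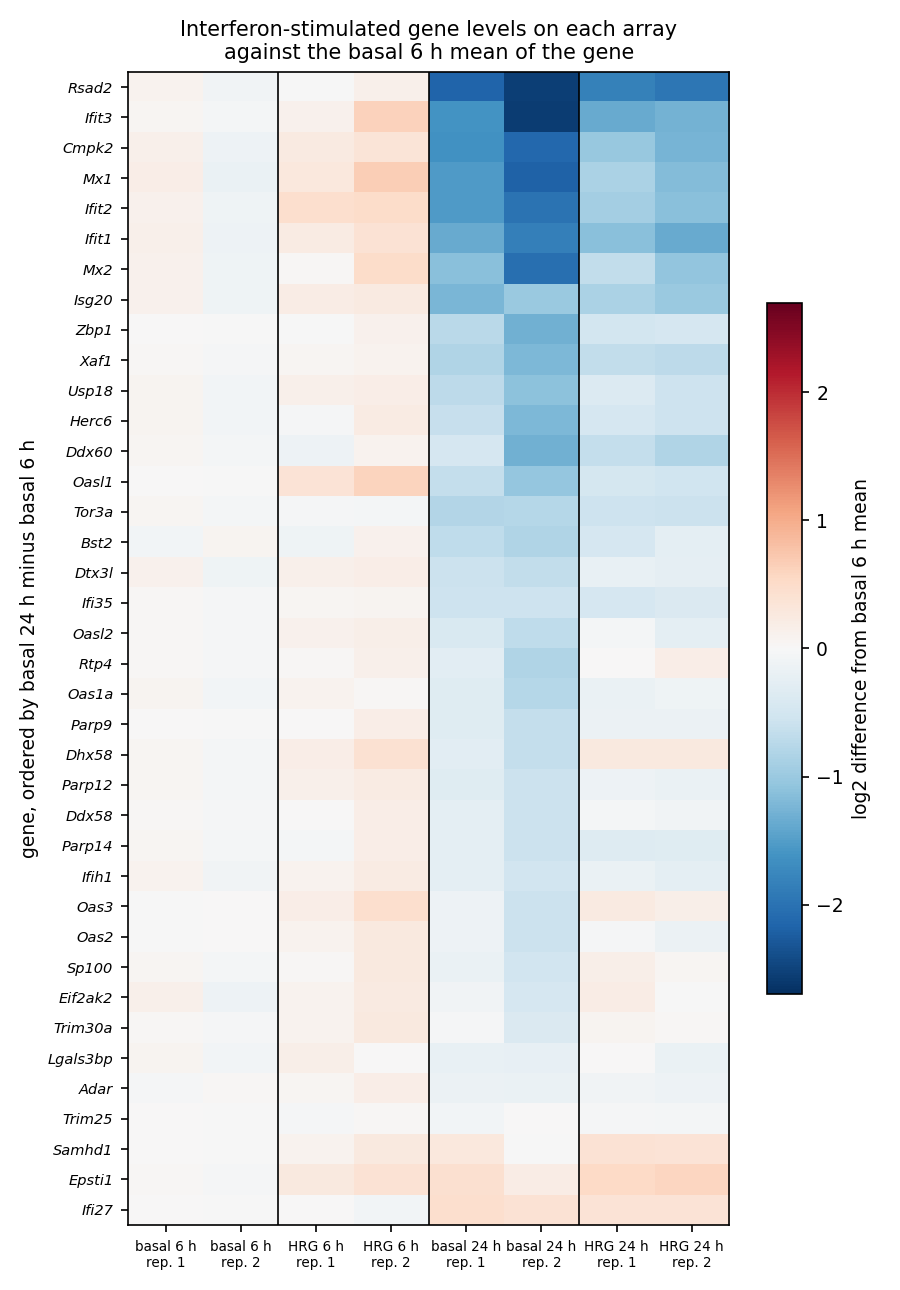
Log2 RMA level of each of the 38 genes (rows, ordered by their change without HRG) on the 8 arrays (columns), drawn as the difference from that gene's Basal 6h mean (colour scale in log2 units, blue below and red above it). Rsad2, Cmpk2, the IFIT genes and the Mx genes span the widest range, with the lowest values on the Basal 24h arrays, while Trim25, Samhd1 and Adar vary little and Ifi27 runs the other way.

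The median change was close in genes with and without a response element core. Among the 27 genes with a promoter window, the median difference was -0.54 for the 11 with a core, which included Rsad2 and Eif2ak2, and -0.55 for the 16 without, which included Cmpk2. No test was made of this. The count of genes that fell without HRG depended on single arrays: it was 17 without Basal 6h replicate 1, 17 without Basal 24h replicate 2 and 30 without Basal 24h replicate 1, and the median difference was -0.36 without Basal 24h replicate 2 and -0.67 without replicate 1. The 8 genes with the largest falls passed in each of the 16 alternative analyses.

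In culture with HRG the antiviral genes also declined, again led by Rsad2 and Ifit3. Of the 38 genes, 14 fell and 1 rose, where 2.87% of all genes fell and 4.41% rose, and the median difference was -0.36, against -0.02 over all genes. Both HRG 24h arrays lay below both HRG 6h arrays for 28 of the 38, which was so for 26.6% of all genes. Rsad2 went from 11.60 and 11.74 to 9.79 and 9.65, a fall of 1.95 ± 0.13 (adjusted p = 9e-06). Ifit3 fell by 1.69 ± 0.24, Ifit1 by 1.56 ± 0.16, Ifit2 by 1.50 ± 0.15, Mx1 by 1.49 ± 0.20, Cmpk2 by 1.44 ± 0.15, Isg20 by 1.15 ± 0.12 and Mx2 by 1.13 ± 0.25. These 8 were the genes at least 2-fold lower, a fold reached by 0.236% of all genes. The other 6 that fell were Oasl1, Usp18, Herc6, Ifi35, Xaf1 and Tor3a, and these 14 were all among the 26 that fell without HRG.

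The remaining 12 passed without HRG and not with it. They included all 5 sensors and Parp9, Dtx3l and Parp12. Dhx58 had a difference of -0.46 ± 0.13 without HRG and of -0.03 ± 0.13 with it, and Rtp4, a chaperone for taste and opioid receptors, had -0.55 ± 0.15 and 0.01 ± 0.15. The contrast of 26 with 14 depended on the analysis: it was 19 without HRG and 20 with it when only the 4 arrays of each comparison were fitted, and 17 and 17 without Basal 24h replicate 2. Over all 16 alternatives the count with HRG ran from 10 to 21. Whether the decline differed with HRG is the same quantity as the difference between the HRG effects at 24 h and 6 h, and no gene of the 38 passed that test, as given below.

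**Figure D3:**
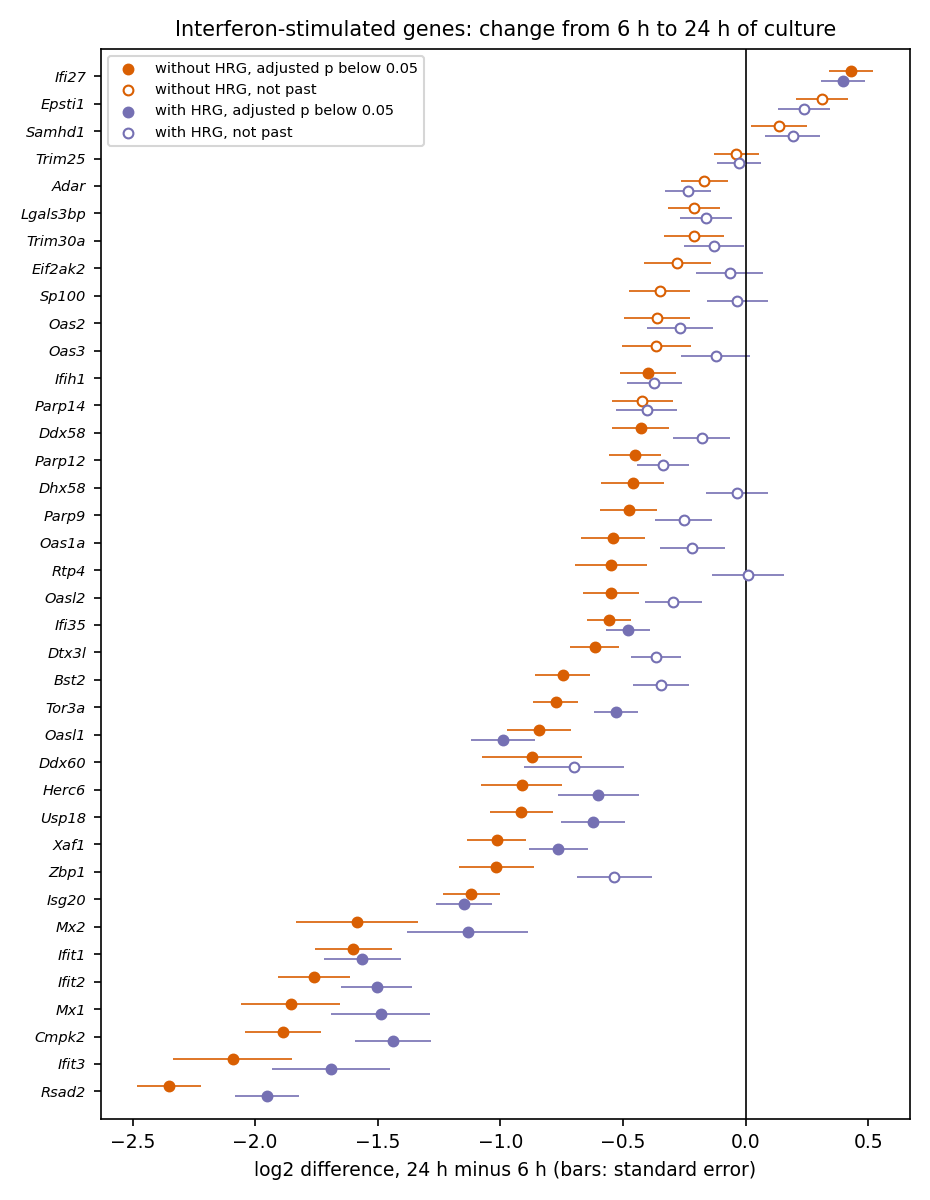
Difference in log2 level between 24 h and 6 h of culture for each of the 38 genes, without HRG (orange) and with HRG (purple), with bars for the SE and filled points where the adjusted p was under 0.05. Most points lie below 0, from -2.35 for Rsad2 without HRG to 0.43 for Ifi27.

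At 24 h most differences between HRG and basal macrophages were above 0, but few passed the test. Of the 38, 5 rose and 0 fell, where 2.43% of all genes rose and 1.05% fell. The difference was above 0 for 37 of the 38, against 43.7% of all genes, with a median of 0.35, against -0.02 over all genes. At an unadjusted p under 0.05 there were 26 of the 38, against 2531 of all 19938 genes. Both HRG 24h arrays lay above both Basal 24h arrays for 31 of the 38, which was so for 19.1% of all genes. The 7 without that separation were Ifit1, Oas2, Isg20, Ddx60, Trim25, Parp14 and Ifi27.

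The 5 genes that rose came from 5 different roles. Dhx58 was at 9.95 and 9.58 in Basal 24h and at 10.49 on both HRG 24h arrays, a difference of 0.72 ± 0.13 or 1.65-fold (adjusted p = 0.0076). Ifit2 was at 7.41 and 6.94 and at 8.02 and 7.81, a difference of 0.74 ± 0.15 or 1.67-fold (adjusted p = 0.015). Cmpk2 was at 8.10 and 7.61 and at 8.73 and 8.48, a difference of 0.75 ± 0.15 or 1.68-fold (adjusted p = 0.019). In each of these the groups did not overlap, and the Basal 24h arrays were farther apart than the HRG 24h arrays. Rtp4 was at 11.06 and 10.53 and at 11.36 and 11.53, a difference of 0.65 ± 0.15 or 1.57-fold (adjusted p = 0.031). Mx1 was at 7.12 and 6.46 and at 7.78 and 7.48, a difference of 0.84 ± 0.20 or 1.79-fold (adjusted p = 0.042). Dhx58 and Rtp4 at 24 h with HRG were within the range of their Basal 6h and HRG 6h levels or close to it, while Cmpk2, Ifit2 and Mx1 stayed below all 4 of their 6 h values.

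Genes with differences as large did not all pass. Ifit3 was at 9.77 and 8.81 in Basal 24h and at 10.03 and 10.10 in HRG 24h, a difference of 0.77 ± 0.24 (adjusted p = 0.14), and Mx2 had 0.72 ± 0.25 (adjusted p = 0.19). Below them came Oas3 (0.57 ± 0.14, adjusted p = 0.051), Zbp1 (0.54 ± 0.15, adjusted p = 0.089), Rsad2 (0.46 ± 0.13, adjusted p = 0.088), Usp18 (0.46 ± 0.13, adjusted p = 0.095), Sp100 (0.46 ± 0.12, adjusted p = 0.077) and Dtx3l (0.40 ± 0.10, adjusted p = 0.056). Ifit1, with the same core sequences in its promoter as Ifit3, had 0.35 ± 0.16 (adjusted p = 0.39). The smallest differences were those of Trim25 (0.00 ± 0.09), Adar (0.05 ± 0.09) and Ifi27 (-0.06 ± 0.09).

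The count of 5 rested on single arrays. It was 18 without Basal 24h replicate 1, 0 without Basal 24h replicate 2, 0 without HRG 24h replicate 1 and 2 without HRG 24h replicate 2. The median difference was 0.53 without Basal 24h replicate 1 and 0.18 without replicate 2, so its size followed which Basal 24h array was used while its sign did not. Without Basal 24h replicate 2 the 5 genes had differences of 0.54 (Dhx58), 0.50 (Ifit2), 0.50 (Cmpk2), 0.38 (Rtp4) and 0.52 (Mx1), with adjusted p between 0.083 and 0.33.

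**Figure D4:**
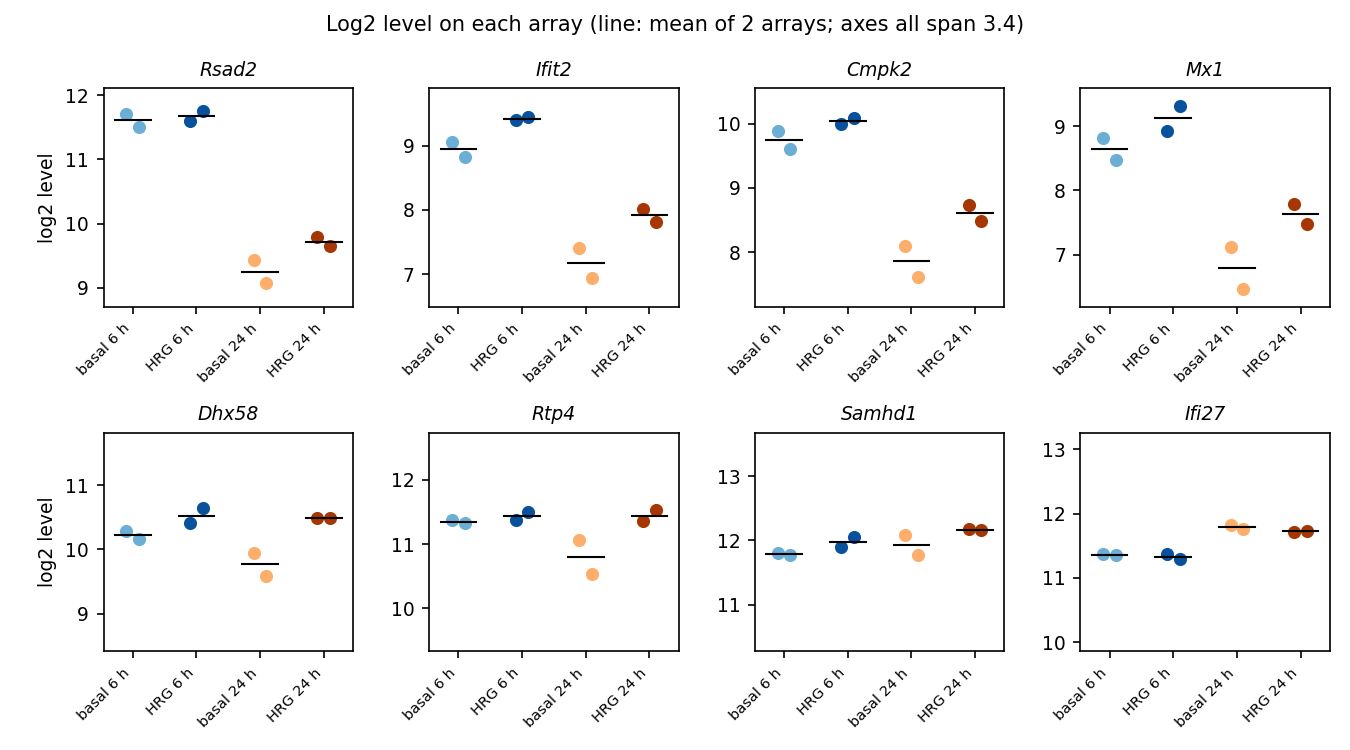
Log2 RMA level on each array (points, 2 per group, with a line at their mean) of Rsad2, of the 5 genes that rose with HRG at 24 h (Ifit2, Cmpk2, Mx1, Dhx58 and Rtp4), and of Samhd1 and Ifi27, which did not fall. The Basal 24h points are the lowest in the first 6, and the HRG 24h points of Dhx58 (10.49 on both arrays) lie above both Basal 24h points (9.95 and 9.58).

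At 6 h no gene of the 38 passed the test of HRG against basal with limma, where 0.431% of all genes rose and 0.818% fell. The count at an unadjusted p under 0.05 was 6 (Oasl1, Epsti1, Oas3, Ifit2, Mx1 and Dhx58), against 2194 of all 19938 genes. The difference was above 0 for 33 of the 38, against 56.1% of all genes, with a median of 0.15, against 0.02. The median was 0.08 without Basal 6h replicate 2 and 0.09 without HRG 6h replicate 2. Both HRG 6h arrays lay above both Basal 6h arrays for 21 of the 38, which was so for 20% of all genes.

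The largest differences at 6 h were those of Oasl1, Ifit2 and Mx1, each 0.48. Oasl1 was at 10.61 and 10.59 in Basal 6h and at 10.97 and 11.19 in HRG 6h (SE 0.13, adjusted p = 0.12). Ifit2 was at 9.06 and 8.82 and at 9.39 and 9.45 (SE 0.15, adjusted p = 0.18), and Mx1 at 8.81 and 8.48 and at 8.92 and 9.32 (SE 0.20, adjusted p = 0.41). The groups did not overlap in these 3 genes. Rsad2 did overlap, at 11.71 and 11.50 without HRG and 11.60 and 11.74 with it.

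**Figure D5:**
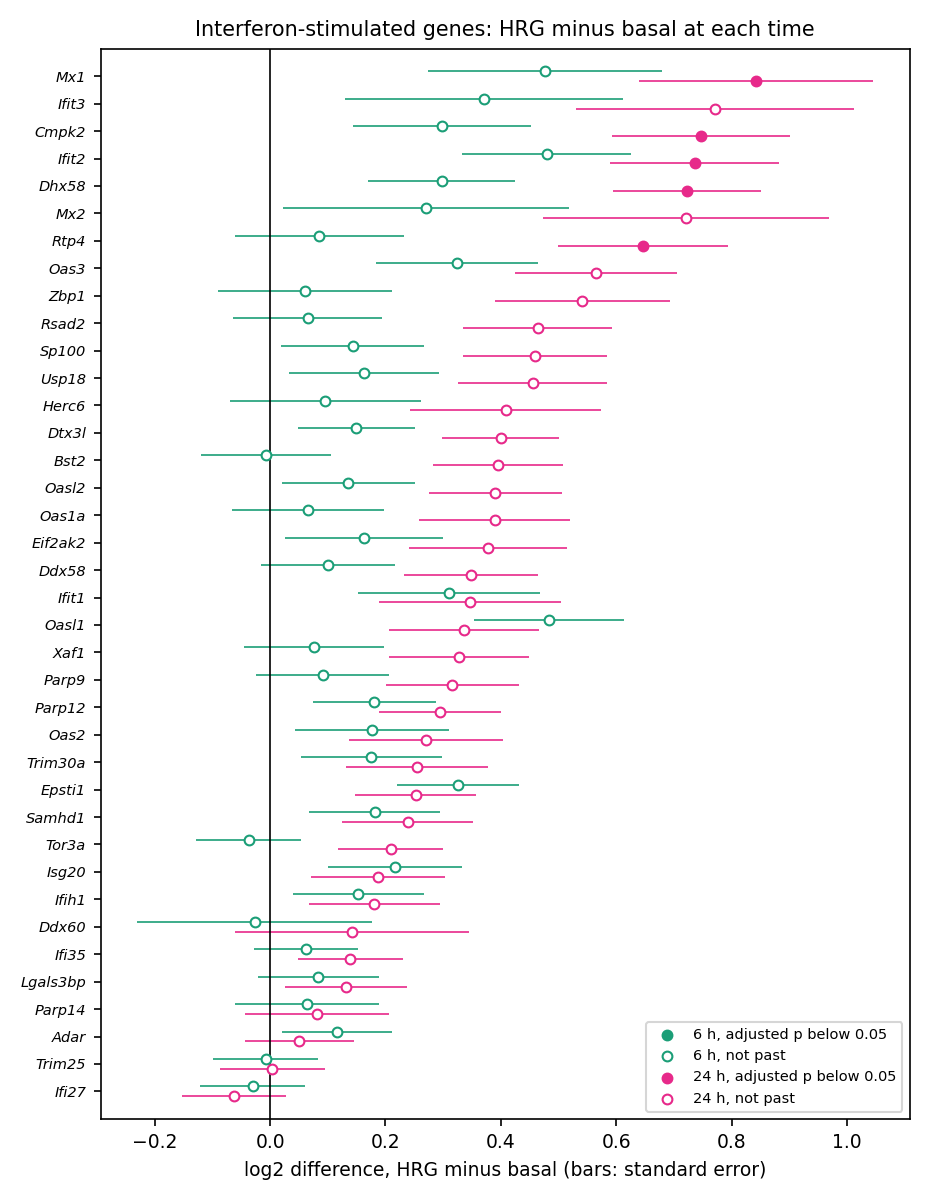
Difference in log2 level between HRG and basal macrophages at 6 h (green) and at 24 h (pink) for each of the 38 genes, with bars for the SE and filled points where the adjusted p was under 0.05. At 24 h 37 of the 38 points lie above 0 and at 6 h 33 do, with medians of 0.35 and 0.15.

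The effect at 24 h minus that at 6 h was above 0 for 33 of the 38 genes, against 43.2% of all genes, with a median of 0.24, against -0.03. By limma 0 of the 38 passed in either direction, where 1.02% of all genes were higher and 0.451% lower. At an unadjusted p under 0.05 there were 4 of the 38, about the same share as the 2197 of all 19938 genes. These were Rtp4 (0.56 ± 0.21, adjusted p = 0.30), Zbp1 (0.48 ± 0.21), Dhx58 (0.43 ± 0.18) and Bst2 (0.40 ± 0.16). A difference between the effects at the 2 times was therefore not shown for any of these genes, nor was its absence. The median and the number of genes above 0 depended on single arrays. Without Basal 24h replicate 2 the median was 0.04 and 24 of the 38 were above 0. Without HRG 6h replicate 1 the median was 0.15, and without Basal 24h replicate 1 it was 0.40 and Rtp4 and Zbp1 passed. The comparisons above share arrays, so their values are given side by side and no overlap between them is drawn on.

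The genes of the interferon pathway itself were examined next. Neither these genes nor those of the lists that follow were examined with an array left out. None of the 16 measured of 23 interferon ligand genes passed in any comparison, and no value among them was above 8.83. The lowest value among these ligand genes was 3.60. The interferon-beta gene Ifnb1 lay between 5.83 and 6.11 on all arrays, where the lower quartile of all rows was 5.85 to 6.00. In rows this low a change may not register, so its absence was not shown. Of the 6 genes examined of the receptor and its signalling chain, only Irf9, the DNA-binding subunit of ISGF3, changed: it fell by 0.37 ± 0.09 from 6 h to 24 h without HRG (adjusted p = 0.026), from 10.80 and 10.74 to 10.45 and 10.35. Stat2 had -0.35 ± 0.11 in the same comparison (adjusted p = 0.073). For HRG at 24 h, Ifnar1 had 0.32 ± 0.09 (adjusted p = 0.092), Ifnar2 0.24 ± 0.09, Irf9 0.18 ± 0.09, Stat2 0.19 ± 0.11, Jak1 -0.00 ± 0.09 and Tyk2 -0.01 ± 0.10, and none passed.

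Irf7, the factor that amplifies interferon-alpha transcription and is itself interferon-induced, fell without HRG by 0.70 ± 0.12 (adjusted p = 0.0035) and rose with HRG at 24 h by 0.54 ± 0.12 (adjusted p = 0.035). It is 1 of 15 measured genes of sensors and adaptors that induce interferon. Of these, 4 fell and 3 rose without HRG, where 5.48% of all genes fell and 3.8% rose. The risers included Tlr4 (0.56 ± 0.11) and the single-stranded RNA receptor gene Tlr7 (0.67 ± 0.10). Ticam2, the adaptor that links Tlr4 to interferon induction, fell with HRG at 6 h by 0.96 ± 0.12 (adjusted p = 0.0035). Among 12 negative regulators 3 rose with HRG at 24 h, where 2.43% of all genes rose. They were the DNA exonuclease gene Trex1 (0.48 ± 0.11), Cish (0.42 ± 0.10) and the phosphatase gene Ptpn6 (0.37 ± 0.09). Of 5 ISG15 conjugation enzymes and relatives outside the 38, Ube2l6, the ISG15 conjugating enzyme, fell without HRG by 1.06 ± 0.11 and rose with HRG at 24 h by 0.48 ± 0.11, and Uba7, the activating enzyme, fell without HRG by 0.51 ± 0.10. Herc3, a relative of the ISG15 ligases on the same list, was lower with HRG at 24 h (-0.42 ± 0.10, adjusted p = 0.047).

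Other interferon-stimulated genes outside the 38 were counted in the same way. Of 49 measured, 25 fell and 0 rose without HRG (median -0.43), where 5.48% of all genes fell. In culture with HRG 11 fell and 1 rose (median -0.25), where 2.87% of all genes fell. With HRG at 24 h 7 rose and 0 fell (median 0.27), where 2.43% of all genes rose. Irf7 and Irf9, already given above, are among the 25, and Irf7 is among the 7. Ifit3b and Trim30d, the close relatives of Ifit3 and Trim30a, are also among the 25. The chemokine gene Cxcl10 fell without and with HRG, with differences of -1.66 ± 0.13 and -1.80 ± 0.13. Slfn1 rose by 1.22 ± 0.26, Ifi27l2a by 0.97 ± 0.15 and Ifi205 by 0.84 ± 0.14 with HRG at 24 h. Of 9 measured interferon-gamma targets, 7 fell without HRG and 2 fell with it. Gbp5 (0.93 ± 0.18) and Irf1 (0.41 ± 0.10) rose with HRG at 24 h, and Cxcl9, an interferon-gamma-induced chemokine gene, passed in none of the comparisons. Cxcl9 had the lowest mean of the 9, 6.55, and in a row this low a change may not register.

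Markers of other peritoneal cells moved in the same comparisons. Of 7 measured of 8 B cell markers, 6 fell from 6 h to 24 h without HRG, where 5.48% of all genes fell. With HRG at 24 h 3 rose, where 2.43% of all genes rose. The 3 included the antigen receptor subunit gene Cd79a (0.98 ± 0.16) and Ms4a1, which encodes CD20 (0.80 ± 0.15). At 6 h all 7 B cell markers had differences below 0 with HRG, and Cd79b passed. The log2 of the summed levels of the 7 was 12.04 to 12.08 in Basal 6h and 11.66 to 11.67 in HRG 6h. At 24 h it was 11.07 to 11.45 in Basal 24h and 11.71 to 11.98 in HRG 24h. This sum was lowest in Basal 24h, and it was lower in HRG 6h than in Basal 6h. Of 6 mast cell markers, 2 fell without HRG and 2 rose with HRG at 24 h, with sums of 12.74 to 12.87, 12.65 to 12.74, 12.22 to 12.55 and 12.79 to 13.10 in the same order. Plasmacytoid dendritic cells are known as strong interferon producers. The sums of 7 measured of 8 of their markers were 11.45 to 11.56, 11.34 to 11.36, 11.31 to 11.34 and 11.47 to 11.61. Tcf4, the row with the highest mean, weighs most in these sums. Of the 7, Ccr9, Cox6a2 and Ly6d fell without HRG. Ly6d was higher with HRG at 24 h, and Cox6a2 was lower with HRG at 6 h and at 24 h. Of 6 classical dendritic cell markers, Ccr7 and Flt3 fell and Clec9a rose without HRG and none passed with HRG at 24 h, with sums of 11.04 to 11.16, 10.71, 10.32 to 10.46 and 10.48 to 10.99. Of 7 measured of 8 T cell markers, Cd2 fell without HRG and 6 had differences above 0 with HRG at 24 h, though none passed, with sums of 10.73 to 11.03, 10.26 to 10.32, 10.31 to 10.82 and 10.75 to 10.95. At 6 h all 7 T cell markers had differences below 0 with HRG (median -0.56), and Cd3g passed. From 6 h to 24 h in culture with HRG, Cd3e, Cd3g and Thy1 rose. Neutrophil sums (6 markers) were 11.91 to 12.02, 12.06 to 12.07, 12.68 to 12.96 and 12.77 to 12.81. Of these 6, only Mmp8, the row with the highest mean, rose with time. The median differences of the 6 from 6 h to 24 h were 0.09 without HRG and -0.02 with it. Over the 8 arrays, sums of 6 NK cell markers were 8.33 to 8.51 and sums of 6 mesothelial markers were 9.25 to 9.60. The macrophage sums were 15.78 to 15.85, 15.83 to 15.90, 15.93 to 15.96 and 16.09 on both HRG 24h arrays. Of the 9 measured macrophage markers, Gata6 fell and Cd14 and Mertk rose from 6 h to 24 h without HRG. In culture with HRG, Itgam, Cd14 and Mertk rose over the same time. Mertk was also higher with HRG than without it at 6 h and at 24 h. The part of these cells in the antiviral gene values was not tested.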

How the data were processed

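Total RNA of 8 samples of pooled mouse peritoneal macrophages was measured on Affymetrix arrays. The authors made the deposited log2 values by RMA, per the submitters' processing notes, which name Affymetrix Expression Console, RMA and limma. Versions and the genome build were not given in the sources used here. RMA equalises the distributions of the arrays, so differences are relative to the other genes. Of 28853 rows, 21789 were paired with 1 symbol, 1621 with several and 5443 with none. Only the first were used, with the row of highest mean for the 999 genes with several, which left 19938 genes. Means of the 4 groups were fitted over the 8 arrays with limma 3.58.1 in R 4.3.3 (4 residual degrees of freedom, prior 7.81), and Benjamini-Hochberg adjustment ran over all genes, with a threshold of 0.05. The number of arrays limits the precision. The fit was tested on simulated data.

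Any of the 38 genes could be named. Values per array are given for those past the threshold for HRG, for the 8 largest changes with culture time and for the 3 largest HRG differences at each time, and for others where singled out. From other lists at most 4 genes past the threshold were to be named per comparison, and every receptor and JAK-STAT gene. Cxcl9, Ifnb1 and Adgre1 were named outside that rule. The genes and lists were chosen with earlier results of these data known, so their directions are not independent evidence. Promoter sequences are RefSeq's, matched by symbol. Replicate numbers do not pair samples in the labels, so no block was used. Deviations of same-numbered samples correlated between -0.331 and 0.411 over all genes. Over the 38 genes they correlated between -0.683 and 0.682.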

Additional observations from a re-analysis of the deposited data

Results flagged for a closer look

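None of the 38 antiviral genes was singled out here. The effects of HRG at 24 h and at 6 h differed by the interaction test (limma, adjusted over all genes) for 14 genes on the accompanying lists. The 24 h effect minus the 6 h effect, on the log2 scale, was 1.20 for Cd79a, 0.87 for Cd79b, 1.17 for Ms4a1, 0.97 for Fcrla, 0.86 for Pax5 and 0.66 for Ly6d, all B cell or lymphoid genes. It was 1.48 for the T cell gene Cd3g, 1.22 for the mast cell gene Cpa3, 0.73 for Ccr7, 0.81 for Cd69 and 0.90 for Treml2. It was 0.72 for the interferon-gamma target Irf1, 0.99 for the adaptor gene Ticam2 and -0.83 for Herc3, a relative of the ISG15 ligases.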

How the results depend on the processing

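The 8 genes with the largest falls without HRG kept their direction and passed in 16 of 16 alternatives. Ifi27 lost its call in 1 without HRG and in 4 with HRG. Among the 5 genes that rose with HRG at 24 h, calls were lost in 2 of 16 (Ifit2 and Cmpk2), 3 (Dhx58) or 4 (Mx1 and Rtp4), with no change of sign. The count of genes that rose with HRG at 24 h, 5 as reported, became 14 with a trended and robust variance prior, 10 with each array's lower quartile as a covariate and 10 with only the 4 arrays compared. Leaving out 1 replicate gave 0 to 18. At 6 h the count went from 0 to 1 (Oasl1) with the trended prior and was 0 to 1 with 1 replicate left out. For the difference of the effects it was 0 to 2. Without HRG, genes that fell numbered 17 to 30 and genes that rose 0 to 1 with 1 replicate left out; with HRG, genes that rose numbered 0 to 1. In these fits a group left with 1 array is assumed to vary like the others. With replicate number as a block, a pairing that the labels do not state, 6 genes rose with HRG at 24 h, 0 rose at 6 h, and 26 and 15 fell without and with HRG. The cause of these shifts was not tested. The difference of effects was not run on only 4 arrays. With 2 arrays a group, small differences were not detectable.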
